A study of Homo sapiens with 4 samples.

Results

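Annexins are calcium-dependent phospholipid-binding proteins, and S100A10 and S100A11 are small EF-hand proteins that bind to annexin A2 and annexin A1. The genes described here are 8 annexins (ANXA1, ANXA2, ANXA3, ANXA4, ANXA5, ANXA6, ANXA7 and ANXA11) and the 2 S100 genes S100A10 and S100A11. They are 10 of the 46427 genes in the deposited tables. The list was chosen by 1 measured value in each line, the TPM of ANXA1, which was higher with COP1-siRNA in both. The change of ANXA1 is therefore a description and supports nothing by itself. The other 9 genes were taken for their family or their binding partner, with earlier results of these data known. Further genes of both families were kept in separate lists, described below.

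COP1 encodes an E3 ubiquitin ligase, and the study asked which genes change when it is silenced in hepatocellular carcinoma (HCC) cells. RNA was sequenced in Huh7 and HepG2, established human liver tumour lines. The 4 conditions were Huh7 with NC-siRNA (negative control siRNA), Huh7 with COP1-siRNA, HepG2 with NC-siRNA and HepG2 with COP1-siRNA. All cells received 20 nM of siRNA with the same lipid reagent (Lipofectamine) and were collected at 48 h, so the controls share the transfection. All 4 libraries carry 1 batch label, and each was made from poly(A)+ RNA with a kit that keeps the strand. There was 1 library per condition. No difference below has a replicate check, a spread or a p-value, and the order of neighbouring levels could not be set against any spread.

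Annexins share a core that docks on negatively charged lipids once calcium rises. They take part in membrane repair, vesicle traffic, exocytosis and the anchoring of actin to membranes. The N-terminal tail differs between them and in some carries the binding site for an S100 dimer: annexin A2 and S100A10 form a cell surface complex that binds plasminogen, and annexin A1 binds S100A11. Secreted annexin A1 acts on formyl peptide receptors and is known as a mediator of glucocorticoid action.

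The promoters of ANXA1 and ANXA2 are shown because ANXA1 had the largest change of the list and ANXA2 the highest level in Huh7, and because their sequences differ in kind. Each is the 250 bases before the RefSeq transcription start on GRCh38.p14, read 5′ to 3′ on the strand of the gene. ANXA1 is from chr9:73151615-73151864 on the plus strand and ANXA2 from chr15:60397987-60398236 on the minus strand. Capitals mark the letters TATAAA (the TATA box), which begin 31 bases before the start in both genes, and in ANXA2 also a match to TGANTCA (the AP-1 motif) 127 bases before the start.
ANXA1: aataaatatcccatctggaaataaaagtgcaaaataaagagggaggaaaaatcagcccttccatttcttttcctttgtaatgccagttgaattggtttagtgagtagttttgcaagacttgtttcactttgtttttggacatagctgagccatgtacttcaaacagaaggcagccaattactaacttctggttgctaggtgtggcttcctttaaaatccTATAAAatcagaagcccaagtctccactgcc
ANXA2: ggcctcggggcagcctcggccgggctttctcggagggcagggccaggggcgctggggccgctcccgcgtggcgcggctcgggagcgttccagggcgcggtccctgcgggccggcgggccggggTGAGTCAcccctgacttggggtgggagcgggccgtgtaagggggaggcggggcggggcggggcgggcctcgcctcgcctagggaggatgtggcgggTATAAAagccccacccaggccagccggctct

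The level of each gene is given in TPM, the share of transcripts scaled for gene length and to a total of 1000000 per library, so that levels of different genes can be set side by side. The change with COP1-siRNA is the log2 ratio of TPM + 1 between the siRNA libraries of a line. The added 1 makes the change of low genes look smaller. Genes that reached 1 TPM in at least 1 library of a line count as tested in that line. All 10 genes did so in both lines. The read number of the libraries is unknown, but the ratio of coverage to FPKM put the COP1-siRNA library at 1.13 times the depth of its control in Huh7 and 1.27 times in HepG2. COP1 itself was at 19.7 and 6.18 TPM in the control and COP1-siRNA libraries of Huh7 (31.4% left) and at 26.9 and 16.1 TPM in those of HepG2 (59.9% left). The hepatocyte origin of the lines was checked against 9 hepatocyte genes, all of which reached 1 TPM. Their summed level was 23687 and 20906 TPM in Huh7 and 3497 and 4077 TPM in HepG2, control first. Of these hepatocyte genes, 8 of 9 were lower with COP1-siRNA in Huh7 (median log2 change −0.11) and 9 of 9 were higher in HepG2 (median 0.40, with FGB past 2-fold), and the part of this in the values below was not tested.

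ANXA1 encodes annexin A1, a substrate of the EGF receptor kinase, and lies on the plus strand of chromosome 9 at 73151865-73170393 of GRCh38 (gene number 301). Its level was 38.7 TPM in Huh7 with NC-siRNA, 115 TPM in Huh7 with COP1-siRNA, 3.77 TPM in HepG2 with NC-siRNA and 11.1 TPM in HepG2 with COP1-siRNA. Both COP1-siRNA libraries were above their own control, and both Huh7 libraries were above both HepG2 libraries. By plain TPM the COP1-siRNA library was at 2.97 times its control in Huh7 and 2.94 times in HepG2. The ratio was thus nearly the same in a line with 10.3 times as much ANXA1 RNA. The log2 changes were 1.55 and 1.34, which placed ANXA1 at rank 16 of 13000 tested genes in Huh7 and rank 21 of 14456 in HepG2. In all, 11970 genes were tested in both. A level 2-fold or more above the control in both was found for 3 of them (0.0251%), ANXA1 included by the choice of the list, and one 2-fold or more below it for 0.0501% and for no member. In bulk RNA, more cells with the transcript and more transcript per cell cannot be told apart.

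Markers of other cell types were low in these cultures or, for leukocytes, lower with COP1-siRNA. The 4 leukocyte markers summed to 149 and 121 TPM in Huh7 and to 192 and 149 TPM in HepG2, control first. Almost all of it was LYZ (119 to 192 TPM), while PTPRC and CSF1R were listed at 0 in all 4 libraries. The 5 fibroblast markers summed to 0.783 to 2.80 TPM, with DCN listed at 0. The 4 endothelial markers summed to 5.08 and 7.36 TPM in Huh7 and to 0.275 and 0.416 TPM in HepG2, with PECAM1 as the one marker to reach 1 TPM.

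ANXA1 was the lowest of the 10 genes in both control libraries. With COP1-siRNA it was at rank 7 of the 10 in Huh7 and rank 9 in HepG2. It made up 1.84% of the summed TPM of the 8 annexins in Huh7 with NC-siRNA and 5.30% with COP1-siRNA. In HepG2 the shares were 0.489% and 1.30%. The 10 genes together made up 0.326% and 0.365% of the TPM total in Huh7 and 0.0982% and 0.109% in HepG2.

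**Figure D1:**
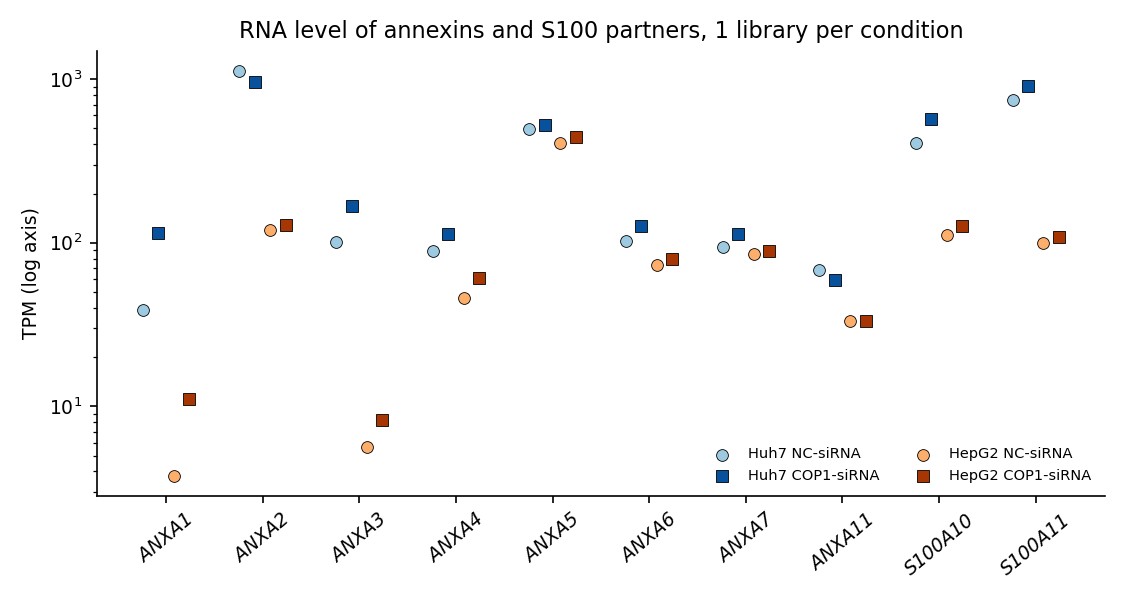
RNA level in TPM (log axis) of the 10 genes in the 4 libraries, 1 symbol per library, circles for NC-siRNA and squares for COP1-siRNA. ANXA1 lies at 38.7 and 115 TPM in Huh7 and at 3.77 and 11.1 TPM in HepG2, while the ANXA5 symbols of all 4 libraries lie between 405 and 525 TPM.

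S100A11 encodes the S100 protein that binds the tail of annexin A1 (chromosome 1, minus strand, 152032506-152037004). Its level was 745 and 904 TPM in Huh7 and 99.3 and 108 TPM in HepG2, control first. The COP1-siRNA library was higher in both lines, by 1.21 and 1.09 times, with log2 changes of 0.28 and 0.12. S100A11 RNA was in excess of ANXA1 RNA in every library. The ratio of ANXA1 to S100A11 was 0.0520 and 0.127 in Huh7 and 0.0380 and 0.102 in HepG2, so that the ANXA1 RNA per S100A11 RNA was higher with COP1-siRNA in both lines.

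ANXA2 encodes annexin A2 (chromosome 15, minus strand, 60347151-60398025) and S100A10 its light chain on the cell surface (chromosome 1, minus strand, 151982915-151993859). ANXA2 was at 1122 and 955 TPM in Huh7 and at 120 and 128 TPM in HepG2, control first. It was the highest gene of the list in both Huh7 libraries, and the difference between siRNAs was small in both lines. By TPM it was lower with COP1-siRNA in Huh7 (log2 change −0.23) and higher in HepG2 (0.10), but coverage gave another sign in Huh7, as described further on. S100A10 was at 407 and 573 TPM in Huh7 and at 112 and 127 TPM in HepG2. It was higher with COP1-siRNA in both lines, with log2 changes of 0.49 and 0.18. In absolute terms S100A10 was higher by 165 TPM in Huh7, the largest gain of the list there, beside 158 TPM for S100A11 and 76.5 TPM for ANXA1. The ratio of ANXA2 to S100A10 by TPM was 2.76 and 1.67 in Huh7 and 1.07 and 1.01 in HepG2.

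ANXA3 encodes annexin A3, a family member found in neutrophils and epithelia (chromosome 4, plus strand, 78551761-78610447). It was at 101 and 168 TPM in Huh7 and at 5.60 and 8.27 TPM in HepG2. Both COP1-siRNA libraries were above their controls, by 1.65 and 1.48 times. With log2 changes of 0.72 and 0.49, ANXA3 had the second largest change of the list in each line and stayed under 2-fold. ANXA4 encodes annexin A4, an epithelial annexin that assembles on membranes (chromosome 2, plus strand, 69643808-69827112). It was at 89.2 and 113 TPM in Huh7 and at 45.7 and 61.1 TPM in HepG2. It was higher with COP1-siRNA in both lines, with log2 changes of 0.33 and 0.41.

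ANXA5 encodes annexin A5, the protein whose binding to phosphatidylserine is used to stain apoptotic cells (chromosome 4, minus strand, 121667946-121696994). It was at 494 and 525 TPM in Huh7 and at 405 and 441 TPM in HepG2. These 4 values lay close together, and the log2 changes were 0.09 and 0.12. ANXA5 held 23.4% and 24.2% of the annexin TPM in Huh7 and 52.5% and 51.8% in HepG2, where it was the highest gene of the list. ANXA6 encodes annexin A6, which carries a doubled annexin core (chromosome 5, minus strand, 151100706-151157779). It was at 102 and 127 TPM in Huh7 and at 72.7 and 79.1 TPM in HepG2, with log2 changes of 0.30 and 0.12.

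ANXA7 encodes annexin A7, also called synexin, a membrane fusion protein (chromosome 10, minus strand, 73375101-73414058). Its level was 93.6 and 113 TPM in Huh7 and 85.1 and 88.7 TPM in HepG2, with log2 changes of 0.27 and 0.06. ANXA11 encodes annexin A11, which tethers RNA granules to lysosomes (chromosome 10, minus strand, 80150889-80205808). It was at 68.3 and 59.1 TPM in Huh7 and at 33.3 and 33.1 TPM in HepG2. ANXA11 was the one gene of the list that was lower with COP1-siRNA in both lines by TPM, with log2 changes of −0.21 and −0.01, and the HepG2 value became 0.07 with upper-quartile scaling.

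Across the list, 1 of 10 genes was at least 2-fold higher with COP1-siRNA in Huh7, against 0.638% of 13000 tested genes, and 1 of 10 in HepG2, against 0.54% of 14456. In both lines that gene was ANXA1, whose change chose the list. With depth-scaled coverage in place of TPM and the same pseudocount, the HepG2 count was 0 and ANXA1 was at 0.63. On that scale ANXA1 in HepG2 was at 0.245 of its FPKM, so the added 1 weighs more. With no pseudocount it was at 1.54. None of the 10 was at least 2-fold lower in either line, against 0.446% and 0.394% of the tested genes. In Huh7, 8 genes were above 0 and 2 below, with a median log2 change of 0.29 against −0.001 over all tested genes. In HepG2, 9 were above 0 and 1 below, with a median of 0.12 against −0.008. By direction alone 8 of 10 were higher in both lines, against 29.2% of the 11970 genes tested in both, and 1 was lower in both, against 31.0%. These counts include ANXA1, and all 10 changes of a line come from the same pair of libraries, so the directions are not independent of each other. Most changes were small: with ANXA1 left out, the lowest and highest were −0.23 and 0.72 in Huh7, and −0.01 and 0.49 in HepG2. Added together, the 8 annexins were at 2109 and 2174 TPM in Huh7 and at 771 and 850 TPM in HepG2.

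**Figure D2:**
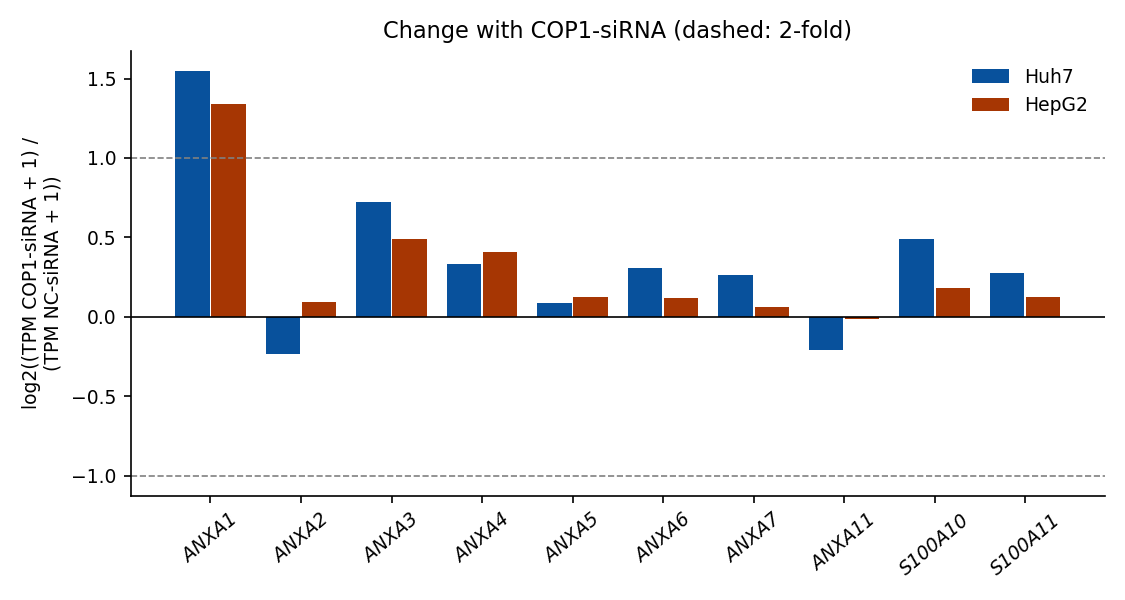
Change with COP1-siRNA as log2 of TPM + 1 over TPM + 1, one bar per gene and cell line, with dashed lines at 2-fold. The ANXA1 bars reach 1.55 in Huh7 and 1.34 in HepG2 and are the only ones past the upper line, while the ANXA2 bar in Huh7 lies at −0.23 by TPM and would lie at 0.27 by coverage, and that of ANXA11 in HepG2 lies at −0.01 and would lie at 0.07 with upper-quartile scaling.

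The tables also give a coverage per gene beside FPKM and TPM, and how it was averaged over the transcripts of a gene is not given in the sources used here. Relative to FPKM and to the library, it was 0.056 for ANXA4 and 1.00 for S100A10 in Huh7 with NC-siRNA, so it is not the same kind of mean for every gene. For ANXA1 the coverage was 25.5 and 89.6 in Huh7 and 2.30 and 8.49 in HepG2, and the HepG2 control value was the lowest coverage of the list. The ratio of coverage to FPKM, divided by that of the library, shows whether both columns moved together. For ANXA1 it was 0.246 in both Huh7 libraries and 0.245 in both HepG2 libraries. In HepG2 this ratio changed between the siRNAs by a factor of 0.992 to 1.01 for all 10 genes. In Huh7 the factor was 0.989 to 1.00 for 8 genes, 1.11 for ANXA11 and 1.36 for ANXA2. A shift of 0.05 or more, as seen for these 2 members in Huh7, was found for 10.7% of the 12345 genes at 1 TPM or more in both Huh7 libraries. For ANXA2 the coverage was 907 and 1240 in Huh7, while its TPM was 1122 and 955. After scaling for depth, with no pseudocount, the log2 change of coverage was 0.27 against −0.23 for the TPM, so its direction in Huh7 is not settled by these files. For ANXA11 in Huh7 the scaled coverage gave −0.002 in place of −0.21. For ANXA1 it gave 1.63 in Huh7 and 1.54 in HepG2, and with the pseudocount of 1 the HepG2 value was 0.63, under 2-fold. The form without a pseudocount was added once the values were known. The cause of the shifts was not tested.

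**Figure D3:**
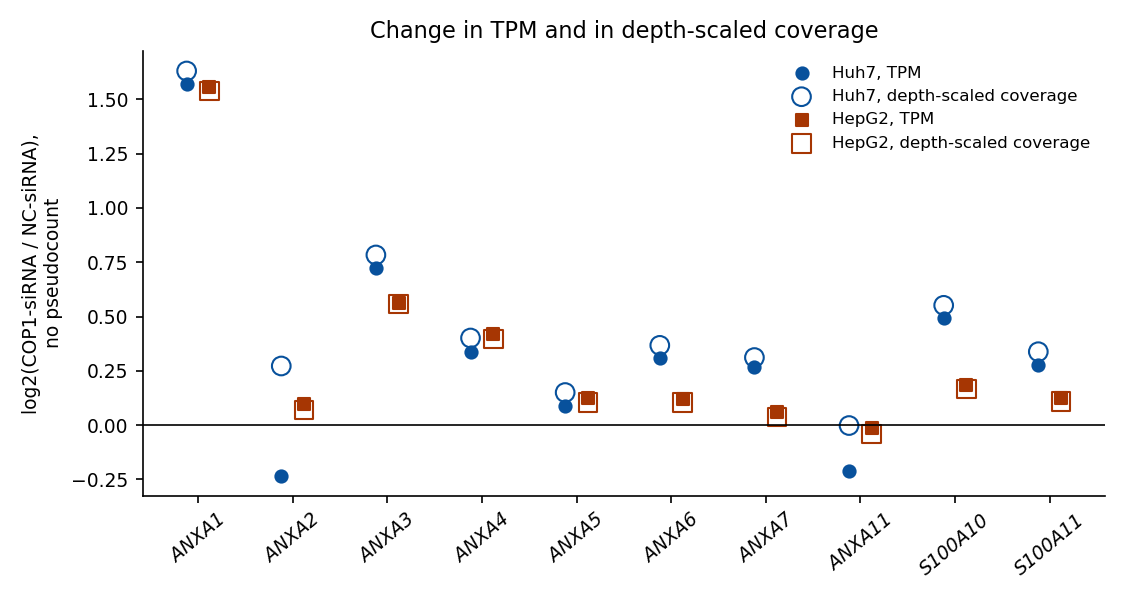
Log2 ratio of COP1-siRNA over NC-siRNA without a pseudocount, from TPM (filled symbols) and from depth-scaled coverage (open symbols), for the 10 genes in Huh7 (circles) and HepG2 (squares). The symbols nearly coincide except in Huh7 for ANXA2, at −0.23 and 0.27, and for ANXA11, at −0.21 and −0.002.

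For every member but ANXA7, the difference between the lines with either siRNA was larger than its change with COP1-siRNA in either line. ANXA7 differed by 0.14 between the control libraries and by 0.27 between the siRNAs in Huh7. The same held for genes at large: over all tested genes the SD of the log2 differences was 1.48 and 1.43 between the lines and 0.30 and 0.28 between the siRNAs. All 10 were higher in Huh7 than in HepG2 with both siRNAs, while the median over all tested genes was −0.37 with NC-siRNA and −0.35 with COP1-siRNA, below HepG2. The members' median log2 difference was 1.43 with NC-siRNA and 1.52 with COP1-siRNA. With NC-siRNA 6 of 10 were at least 2-fold higher in Huh7, against 14.7% of 15055 tested genes, and with COP1-siRNA 5 of 10, against 14% of 15126. At least 2-fold higher in HepG2 were 0 members, against 27.9% of tested genes with NC-siRNA and 26.0% with COP1-siRNA. The same 5 were past 2-fold with both siRNAs, against 12.8% of 14695 genes, and the share of genes 2-fold higher in HepG2 with both was 23.6%. The 2 siRNA libraries of a line are not replicates of it, so these are differences between 1 Huh7 culture and 1 HepG2 culture per siRNA.

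ANXA3 had the widest gap, at 18.1 times the HepG2 level with NC-siRNA and 20.3 times with COP1-siRNA. ANXA1 followed by plain ratio, at 10.3 and 10.4 times. ANXA2 was at 9.35 and 7.45 times and S100A11 at 7.51 and 8.34 times. S100A10, the partner of annexin A2, was at 3.64 and 4.50 times. These 5 genes made up the group past 2-fold. ANXA11 lay at the threshold, with log2 differences of 1.01 and 0.82, and ANXA4 just under it, with 0.95 and 0.87. ANXA5, ANXA6 and ANXA7 lay between 0.14 and 0.67. The order of levels also differed: in Huh7 with NC-siRNA ANXA2, S100A11 and ANXA5 led, in HepG2 ANXA5, ANXA2 and S100A10. ANXA2 made up 53.2% of the annexin TPM in Huh7 and 15.6% in HepG2 with NC-siRNA.

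**Figure D4:**
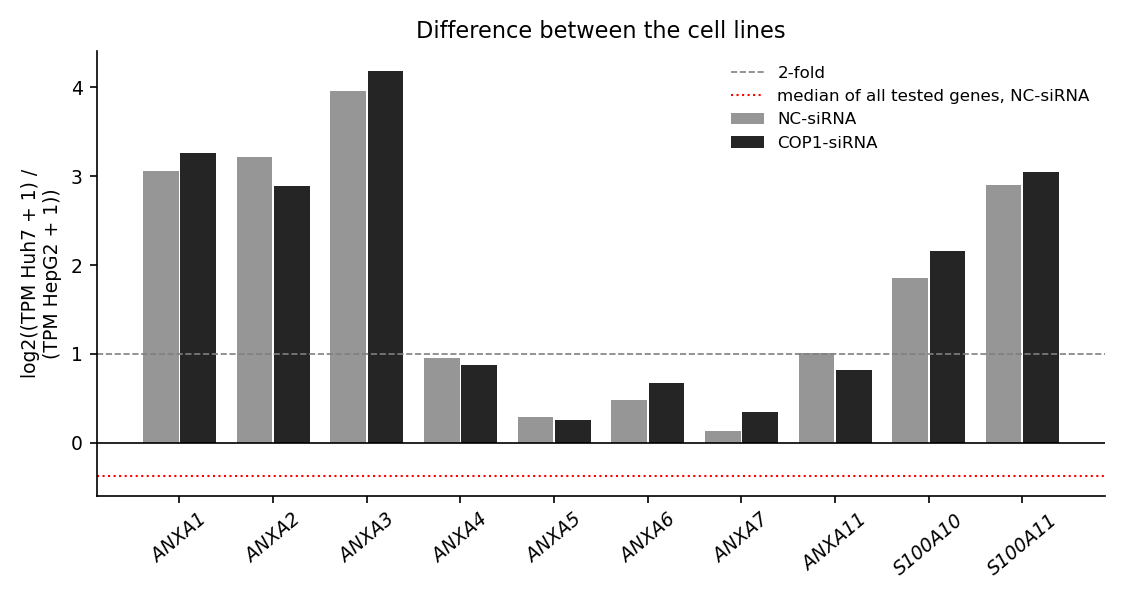
Log2 difference between Huh7 and HepG2 on the TPM + 1 scale, one grey bar with NC-siRNA and one black bar with COP1-siRNA per gene. A dashed line marks 2-fold and a dotted line the median of all tested genes with NC-siRNA, −0.37. All bars are above 0, those of ANXA1, ANXA2, ANXA3, S100A10 and S100A11 lie past 2-fold with both siRNAs, and the ANXA11 bars lie at 1.01 and 0.82.

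Of the genes listed as working with these proteins, 0 passed 2-fold in either line on the TPM + 1 scale. Of all tested genes, 0.638% were 2-fold higher and 0.446% lower in Huh7, and 0.54% and 0.394% in HepG2, so few calls would be found in lists of this length, and the count depends on the pseudocount for PLAUR, as given in the next paragraph. Of the 5 other annexins, 3 were tested in Huh7 (median 0.42) and 1 in HepG2. The Huh7 median is the value of ANXA8, at 0.868 and 1.49 TPM. ANXA8L1, at 0.953 and 1.66 TPM in Huh7, had a log2 change of 0.45. Both lie near the minimum of 1 TPM. Their transcripts are 99.4% identical over 2174 aligned columns, so reads could be shared between them. ANXA9, an annexin with a degenerate calcium site, was the highest of the other annexins, at 18.7 and 16.9 TPM in Huh7 and 4.19 and 6.58 TPM in HepG2. Its log2 changes were −0.13 and 0.55. Of the 18 other S100 genes 7 were tested in each line, with medians of 0.21 and 0.24, and 5 of the 7 were above 0 in each. S100P, the highest of them, was at 451 and 488 TPM in Huh7 and at 24.5 and 38.7 TPM in HepG2, with log2 changes of 0.12 and 0.64. S100A6, chosen after its values were seen because it too binds annexins, was at 319 and 370 TPM in Huh7 and at 30.0 and 43.4 TPM in HepG2. S100A16, also chosen after its values were seen, was at 72.3 and 47.2 TPM in Huh7. Its log2 changes were −0.60 in Huh7, the lowest of the 7 tested there, and 0.08 in HepG2. A further 7 S100 genes were listed at 0 in all libraries.

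The annexin A1 receptors FPR1, FPR2 and FPR3 were listed at 0 in all 4 libraries. Of the 9 genes of this list, which also held the glucocorticoid receptor and its targets, 5 were tested in Huh7 (median 0.04) and 6 in HepG2 (median 0.03). The highest was TSC22D3, a glucocorticoid-induced leucine zipper gene, at 12.01 and 10.9 TPM in Huh7 and 214 and 178 TPM in HepG2, with log2 changes of −0.13 and −0.27. Among 8 genes of the plasminogen system, which the annexin A2 complex serves as a receptor, 7 were tested in each line, with medians of 0.01 and 0.25. PLAUR, the urokinase receptor, was chosen after its values were seen, at 1.67 and 3.54 TPM in Huh7 and 6.47 and 8.97 TPM in HepG2. Its log2 changes were 0.77 and 0.42 and its plain TPM ratios 2.12 and 1.39, so that it was past 2-fold in Huh7 without the pseudocount. In this list 4 genes were above 0 and 3 below in Huh7, and 5 above and 2 below in HepG2. SERPINF2, also chosen after its values were seen, had log2 changes of −0.57 in Huh7 and 0.35 in HepG2.

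Of 15 genes for membrane repair and annexin partners, 14 were tested in Huh7 (median 0.05) and 13 in HepG2 (median 0.02). CAPNS1, the small calpain subunit, was the highest, at 419 and 329 TPM in Huh7 and 288 and 220 TPM in HepG2. It was lower with COP1-siRNA in both lines, with log2 changes of −0.35 and −0.39. AHNAK, a giant scaffold protein that binds the annexin A2 and S100A10 complex, was at 53.6 and 71.3 TPM in Huh7 and 1.56 and 2.06 TPM in HepG2. MYOF, the ferlin myoferlin, was at 29.9 and 43.7 TPM in Huh7 and 0.694 and 1.30 TPM in HepG2, with plain ratios of 1.46 and 1.87. AHNAK and MYOF were chosen after their values were seen. Both were higher in Huh7 than in HepG2 and higher with COP1-siRNA than with NC-siRNA in each line. The list as a whole was mixed, with 8 genes above 0 and 6 below in Huh7, and 8 above and 5 below in HepG2.

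The genes most like ANXA1 were sought by the Euclidean distance between log2 levels over the 4 libraries, each gene centred on its own mean. Among the 11970 genes tested in both lines the nearest were GBP1 (distance 0.34), MYL9 (0.66), GLIPR1 (0.73), MT1E (0.86) and CYP1B1 (0.87), against a median distance of 3.71. GBP1, an interferon-induced GTPase, was at 7.29 and 28.2 TPM in Huh7 and at 0.352 and 1.70 TPM in HepG2. MYL9, a myosin regulatory light chain, was at 17.6 and 36.8 TPM in Huh7 and at 1.07 and 2.18 TPM in HepG2. All 5 had more RNA in Huh7 and more with COP1-siRNA, as the measure asks. In this order ANXA3 was at rank 40, S100A11 at 50, ANXA2 at 179 and S100A10 at 215, while the other members were at 1185 or beyond. The distance rests on 4 libraries and on the values of ANXA1, which chose the list. It weighs the differences between the lines more, as these were wider than those between the siRNAs. With NC-siRNA the log2 line differences of S100A11 and ANXA2 were 2.90 and 3.22, near the 3.06 of ANXA1. Their changes in Huh7 were 0.28 and −0.23, against 1.55. A near rank is thus no sign of a like change with COP1-siRNA.

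The promoter of ANXA1 stood apart from those of the other members in base composition. RefSeq promoters of GRCh38.p14, running from 250 bases before to 50 bases after a start, were found for all 10 genes, with 14 windows among them. The ANXA1 window had a GC content of 37.7%, and 7.57% of all 35116 promoters had less. It held 0 CpG dinucleotides, as did 3.96% of all promoters, whose median was 14. The other 13 windows of the list had a GC content of 51.7% to 78.0% and between 7 and 44 CpG. The letters TATAAA on the strand of the gene were present for ANXA1, ANXA2 and ANXA11 and in 7.33% of all promoters. The GC box GGGCGG, on either strand, was present for 8 of 10 genes and in 45.0% of all promoters. ANXA1 and ANXA3 were the members without it.

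The remaining motifs were searched on both strands. TGANTCA was present for ANXA2 and in 7.71% of promoters. The ETS motif CCGGAA was present for ANXA4 and ANXA11 and in 17.2% of promoters, and the TEAD motif GGAATG for none of the members and in 14.03%. The CArG box was present for ANXA7 and in 1.29% of promoters. CCGGAA and GGAATG share the letters GGAA and can overlap. A match says nothing of binding. Genes with 2 or more windows count once if any window holds the motif.

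**Figure D5:**
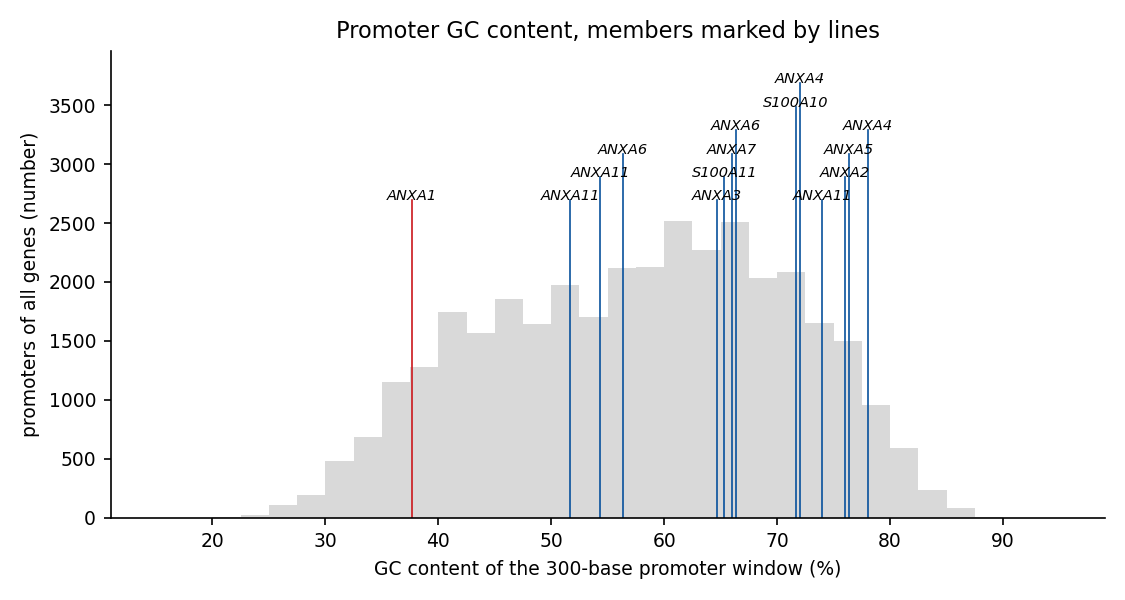
GC content in percent (horizontal axis) of the 35116 RefSeq promoter windows of 300 bases, as a grey histogram of their number, with a vertical line for each of the 14 windows of the 10 genes. Line heights only separate the names. The ANXA1 line lies at 37.7%, and the others lie between 51.7% and 78.0%.

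Reads of pseudogene copies could be shared with 2 of the members. ANXA2 has 3 processed pseudogenes in the tables, of which ANXA2P2 is 98.4% identical to the ANXA2 transcript over 1020 aligned columns. Their highest TPM was 1.76, so they hold little beside the 1122 TPM of ANXA2. S100A11 has 6 copies, all listed at 0, and their identity to S100A11 was not computed. How the authors divided such reads is not given in the sources used here, which leaves both values uncertain to that extent. Genes on the opposite strand overlap ANXA2, ANXA4 and S100A10, with at most 0.229 TPM in any library. S100A10 and S100A11 are neighbours on chromosome 1, 38646 bases apart and on the same strand.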

How the data were processed

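RNA of 4 libraries was analysed, with 1 library for each of Huh7 and HepG2 with NC-siRNA or COP1-siRNA, grouped by their labels. The authors deposited a gene table per library with 3 values per gene. The deposited TPM values are scaled for gene length and sum to 1000000 per library. The FPKM values deposited are scaled for length and depth. The deposited coverage is a read depth per gene and is not scaled for sequencing depth. The submitters' processing notes name FastQC 0.11.7, Trimmomatic 0.38, HISAT2 2.1.0, StringTie 2.1.3b, edgeR and the build GRCh38. The role and order of these tools and the gene annotation are not given in the sources used here.

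The name column of the tables held no gene names. Genes were therefore matched by gene number to RefSeq, which found 44698 of 46427 (96.3%) and all 10 members, 7 of them with identical ends and the others within 39 bases. Values of 52 gene numbers on more than 1 line, none a member, were summed. Changes were computed on log2 of TPM with a pseudocount of 1, for genes with at least 1 TPM in 1 of the libraries compared. The threshold of 2-fold was taken from the study, which also set a limit on the p-value. That limit was not used here, so the counts above are not like those of the study. No test was run, because no condition had a second library. The tables hold no read counts, so the depth and the precision of a single value are unknown, and the modal ratio of coverage to FPKM gave relative depth only.

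The members and the gene lists were chosen with earlier results of these data known. The genes named were the members, COP1, listed genes past 2-fold in either line, the highest gene of each list by mean TPM, pseudogene copies and overlapping genes of members, and the 5 genes nearest to ANXA1 by pattern. Of these, 1 gene is not reported here. ANXA8, ANXA8L1, S100A6, S100A16, PLAUR, SERPINF2, AHNAK, MYOF, the annexin A1 receptors and the single marker genes were named outside this rule, with their values known. The alternatives were a pseudocount of 0.1, no minimum or a minimum of 5 TPM, FPKM or depth-scaled coverage in place of TPM, median-of-ratios or upper-quartile scaling, a threshold of 1.5-fold, lines of a gene number kept apart, protein-coding genes only, and pseudogenes summed with their parent gene. Depth-scaled coverage with no pseudocount was added after the values were seen. Promoters came from RefSeq on GRCh38.p14, and transcripts for the identity of copies from GENCODE. The computation was checked on simulated data, in which 200 genes per line were given a 4-fold change and all were recovered. That change lay well past the 2-fold threshold, so the check says nothing of calls near it. Python 3.11.15, numpy 2.4.6, pandas 2.3.3, SciPy 1.17.1, matplotlib 3.10.9 and Biopython 1.88 were used.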

Additional observations from a re-analysis of the deposited data

Results flagged for a closer look

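ANXA2 had a change of opposite sign in the 2 lines, with a log2 fold change of −0.23 with COP1-siRNA in Huh7 and 0.10 in HepG2. The difference between the lines was not tested, and by depth-scaled coverage the Huh7 value was 0.27, on the same side as HepG2. ANXA9 also differed in sign, with −0.13 in Huh7 and 0.55 in HepG2, from 18.7 and 16.9 TPM in Huh7 and from 4.19 and 6.58 TPM in HepG2. This difference was not tested either. With 1 library per condition, no value of a single sample could be set against others of its group.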

How the results depend on the processing

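No paired analysis was possible because each condition had 1 library, the labels carry no replicate numbers and no result comes from a test. At 1.5-fold, 2 members were past the threshold in Huh7, ANXA3 beside ANXA1. With depth-scaled coverage and a pseudocount of 1, 0 members passed 2-fold in HepG2: ANXA1 was then at 0.63, and with no pseudocount it was at 1.54. With a pseudocount of 0.1, 1 gene of the plasminogen list, PLAUR, passed 2-fold in Huh7. The other counts of members and listed genes stayed within 1.5 times their value under the alternatives run. Of 124 changes of single members under alternatives, 3 took another sign: ANXA2 in Huh7 at 0.27 with coverage in both forms, and ANXA11 in HepG2 at 0.07 with upper-quartile scaling, which moved the median of all genes to 0.12 in Huh7 and 0.07 in HepG2. None of 120 differences between the lines fell below 0. ANXA4 passed 2-fold between the lines with median-of-ratios scaling (1.28 with NC-siRNA and 1.20 with COP1-siRNA), as did ANXA11 with COP1-siRNA (1.14); this scaling moved the median of all genes between the lines to −0.06 with either siRNA. ANXA11 with NC-siRNA was under 2-fold with FPKM (0.90), coverage (0.67, or 0.73 with no pseudocount) and upper-quartile scaling (0.92). Depth is unknown, and no interval could be given.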
